A study of Mus musculus with 11 samples.

Results

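The genes described here are the collagens and a group of other genes of connective tissue matrix, measured in sorted motor neurons of mouse embryos. They were chosen by symbol and not by level. A gene was a member where a probe set of the array carried its symbol and no other, and where that symbol was that of a collagen chain or was Fn1, Postn, Sparc, Sparcl1, Nid1, Nid2, Lum, Dcn, Fbn1 or Bgn. This gave 51 genes of the 18193 on the array with a symbol of their own, 42 of them collagens and 9 from the named matrix genes, and Fbn1 was not analysed here. Each gene was read from the probe set with the highest mean over the 11 arrays. The arrays held RNA from C57/BL6 embryos that carried Hb9::GFP, a transgene in which the promoter of a motor neuron gene drives green fluorescent protein. A rhodamine dextran taken up from the phrenic nerve marked the neurons that innervate the diaphragm, and these made up 4 phrenic arrays. The same dextran taken up from the radial nerve marked limb-innervating neurons of the lateral motor column, which made up 3 LMC radial arrays. The remaining 4 arrays came from cells of C3-C5 that carried the green reporter but no dextran, written C3-C5 GFP-only. In any comparison with these cells, cell type cannot be told apart from labelling and sorting by dextran. Below, the name of a cell type stands for its sorted samples, whatever cells they held. Cells were sorted from dissociated spinal cord, and the labels give neither the age of the embryos nor the animals behind each replicate. A p-value here therefore reflects how much arrays of a type differed, which may be technical. The labels give no segment for the LMC radial arrays.

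Collagens are triple-helical proteins that are secreted, trimmed and crosslinked outside the cell. Fibrillar collagens such as types I, III and V build the fibres of mesenchyme, dermis and nerve sheaths, and type IV collagen, joined to laminin by nidogens, builds the sheet of the basement membrane. Fibroblasts, pericytes, endothelium, Schwann cells and meninges are the usual sources of these proteins around the spinal cord, whereas neurons make a smaller set, among them some transmembrane collagens. Levels below are log2 values of a probe set, and array medians lay between 4.48 and 4.63 on that scale. A level under 5 therefore lay near or below the middle of all probe sets. Where a type's mean was under 5 the fold is a lower bound, taken after raising values under 5 to 5. In RNA from sorted cells, a smaller share of cells that express a gene and less RNA of it per cell cannot be told apart.

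The arrays fell into 2 sets by their 25th percentile. It was 3.18 to 3.20 on phrenic replicates 2 and 3 and C3-C5 GFP-only replicates 2 and 3, and 3.26 to 3.38 on the other 7 arrays, which included the 3 LMC radial arrays. The excess of 3′ over 5′ control probe signal for Actb, a measure of RNA quality that grows with degradation, was 1.72 ± 0.48 (SD, n = 4) on phrenic arrays, 1.53 ± 0.42 (n = 4) on C3-C5 GFP-only arrays and 1.06 ± 0.06 (n = 3) on LMC radial arrays. Motor neuron markers were high, and 8 of the 10 listed genes reached 5 on each array. Their mean was highest on C3-C5 GFP-only arrays, at 9.08 to 9.22, then 8.73 to 9.03 on phrenic arrays and 8.33 to 8.55 on LMC radial arrays. Of the 10, 3 passed as higher in C3-C5 GFP-only cells than in the mean of the other types (30.0%, against 0.691% of all probe sets). In LMC radial cells 4 passed as lower than in C3-C5 GFP-only cells (40.0%, against 1.88%).

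Some matrix genes were higher in phrenic than in C3-C5 GFP-only samples, and none passed as lower. Of the 51 members, 9 were higher in phrenic neurons than in C3-C5 GFP-only cells at an adjusted p under 0.05 and 0 were lower. Of all probe sets tested, 0.973% were higher and 0.986% lower, and with 1 probe set per gene, chosen as for the members, 1.43% were higher. These 9 were Bgn, Col26a1, Col4a1, Col5a2, Col8a1, Fn1, Nid1, Postn and Sparcl1. In the same limma fit, 21 members were higher and 1 lower at an unadjusted p under 0.05. The share of all probe sets at that unadjusted level was not counted in any comparison, so such counts have no background beside them. The median difference of the 51 members was 0.51, with the median of all probe sets at -0.00, and 35 differences were positive and 16 negative. By group means, 26 members had the order phrenic, LMC radial, C3-C5 GFP-only from high to low, and 25 had another. With values under 5 raised to 5, Col26a1 and Sparcl1 were the 2 members that passed, here and against the mean of the other types. Col4a1, Col5a2, Fn1 and Nid1 had no value under 5, so the floor left their values and differences as they were. Their calls were lost through the estimate of spread and the adjustment, which draw on all probe sets. In 18 members, 35.3% of them, each phrenic array lay above each C3-C5 GFP-only array, against 3.51% of all probe sets. Replicate numbers of these 2 types were taken to pair the arrays, which the labels do not state. With the replicate number as a block in the fit of 11 arrays 7 members passed, without Bgn (adjusted p = 0.0781) and Col4a1 (adjusted p = 0.0705). With the block in a fit of these 2 types alone 3 passed, namely Col26a1, Col5a2 and Sparcl1, and the other 6 had adjusted p-values from 0.0770 to 0.165. The count was 15 without phrenic replicate 2 and 5 without phrenic replicate 1. It was 4 without C3-C5 GFP-only replicate 1, 4 without replicate 2, 5 without replicate 3 and 3 without replicate 4.

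Against the mean of the other types, 7 of the 51 members were higher in phrenic neurons and 0 lower, with 2.4% of all probe sets higher and 1.45% lower (3.08% higher with 1 probe set per gene). At an unadjusted p under 0.05 limma gave 19 higher and 1 lower, again with no count of all probe sets beside them. The 7 were Col26a1, Col4a1, Col5a2, Col8a1, Fn1, Nid1 and Sparcl1, and the median difference of the 51 members was 0.44 against -0.02 for all probe sets. The count was 12 without phrenic replicate 2, and 4 without phrenic replicate 3, phrenic replicate 4 or any of the 4 C3-C5 GFP-only replicates. In C3-C5 GFP-only cells 3 members, Fn1, Nid1 and Sparcl1, were lower than the mean of the other types and 0 were higher, with 0.282% of all probe sets lower and 0.691% higher (0.313% lower with 1 probe set per gene). At an unadjusted p under 0.05 in limma, 21 were lower and 1 higher, which likewise have no background. The median difference there was -0.34, against -0.01 for all probe sets, and in 10 of the 51 members (19.6%) each C3-C5 GFP-only array lay below each of the other 7 arrays, against 0.744% of all probe sets. The count of members that passed as lower was 8 without phrenic replicate 2, 5 without LMC radial replicate 3, and 1 without LMC radial replicate 2 or any of the 4 C3-C5 GFP-only replicates. With the replicate block over the 11 arrays, the phrenic calls of Col4a1 (1.40 ± 0.35, adjusted p = 0.0746), Fn1 (0.93 ± 0.24, adjusted p = 0.0831) and Nid1 (1.35 ± 0.37, adjusted p = 0.0905) against the mean of the other types were lost. So were the C3-C5 GFP-only calls of Fn1 (-1.31 ± 0.24, adjusted p = 0.0529) and Nid1 (-1.76 ± 0.37, adjusted p = 0.0689), and Postn passed in both. These comparisons share arrays, so their counts are not independent. Over the 6 comparisons made, 9 members passed in at least 1 and 42 in none.

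**Figure D1:**
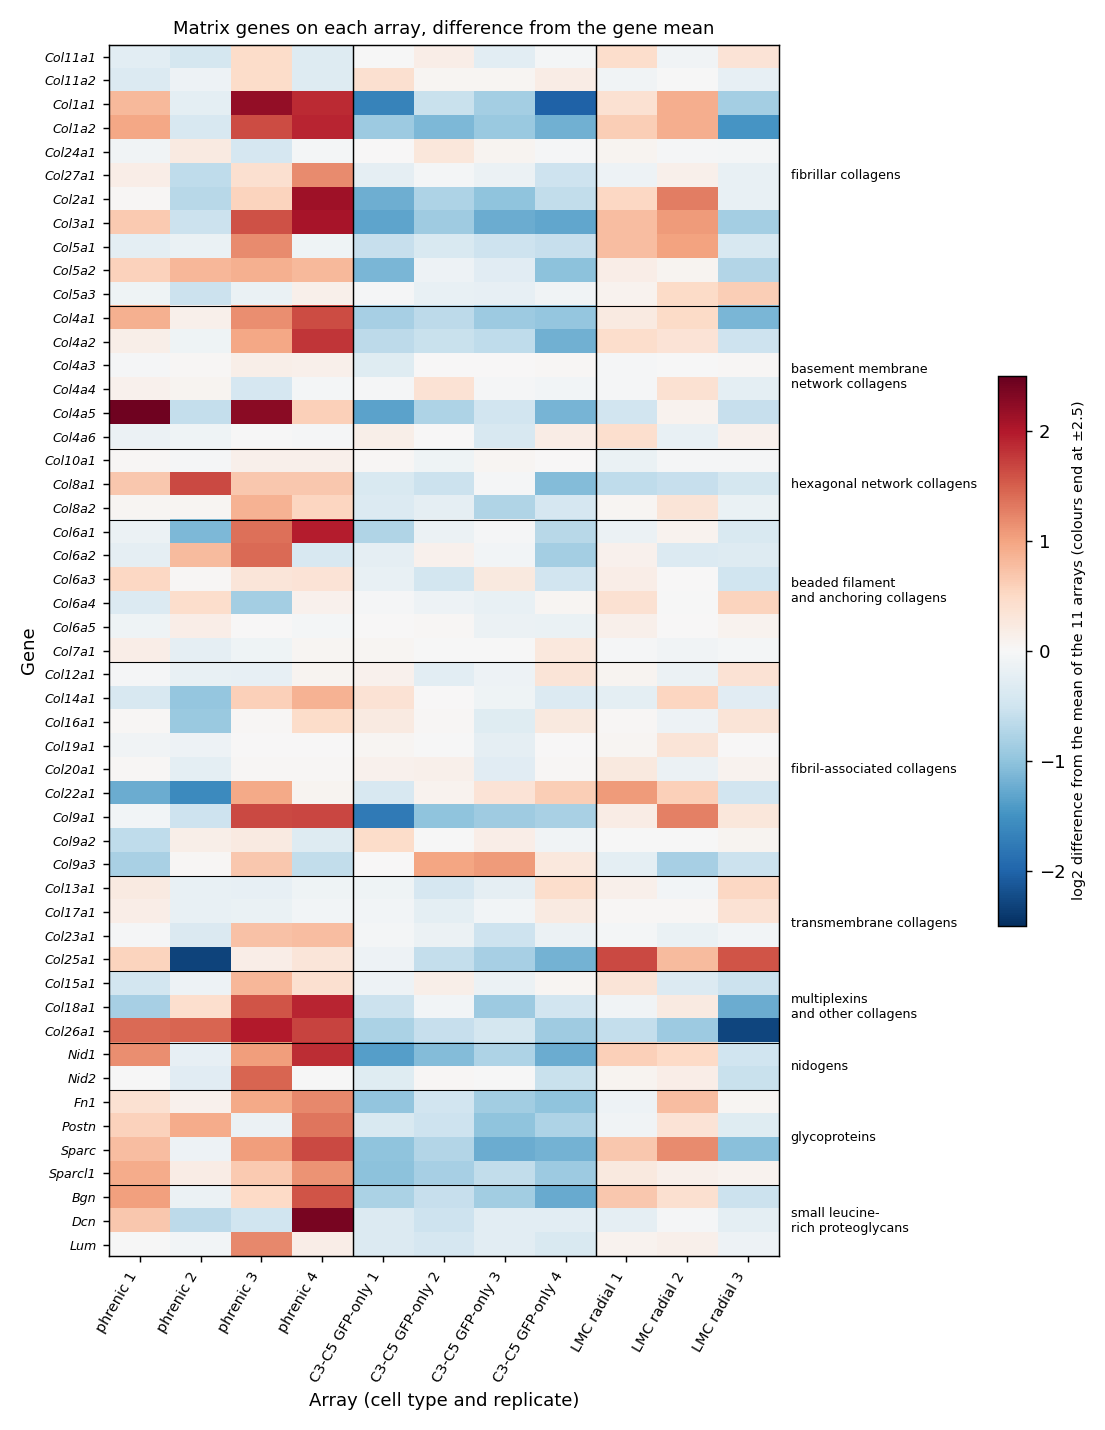
Each row is a member and each column an array, coloured by the log2 difference from the mean of that gene over the 11 arrays, with colours ending at ±2.5; rows are grouped by protein class. The 4 C3-C5 GFP-only columns are blue for most fibrillar, type IV, nidogen and glycoprotein rows, phrenic replicates 3 and 4 are red, and phrenic replicate 2 and LMC radial replicate 3 are paler or blue.

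Because 16 of the 24 members with a mean of at least 5 in some cell type had the order phrenic, LMC radial, C3-C5 GFP-only, the sequence before their transcription starts is shown for 5 of them: the fibrillar chains Col1a2 and Col3a1, the basement membrane linker Nid1, the calcium-binding glycoprotein Sparc, and Col8a1, whose pattern differed. Each line gives the 150 bases before the start on the gene's own strand, from RefSeq in GRCm38.p6, and capitals mark, on either strand, a CCAAT box, the GC box motif GGGCGG or the TATA motif TATAAA. The intervals are chr6:4505468-4505617 on the plus strand for Col1a2, chr1:45311388-45311537 (plus) for Col3a1, chr13:13437452-13437601 (plus) for Nid1, chr11:55420081-55420230 (minus) for Sparc and chr16:57754738-57754887 (minus) for Col8a1.
Col1a2: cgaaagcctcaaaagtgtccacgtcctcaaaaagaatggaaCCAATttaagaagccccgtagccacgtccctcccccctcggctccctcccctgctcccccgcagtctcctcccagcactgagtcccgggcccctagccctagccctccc
Col3a1: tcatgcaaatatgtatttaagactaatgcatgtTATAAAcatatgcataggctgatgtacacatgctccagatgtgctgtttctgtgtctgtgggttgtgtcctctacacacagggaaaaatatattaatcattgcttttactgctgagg
Nid1: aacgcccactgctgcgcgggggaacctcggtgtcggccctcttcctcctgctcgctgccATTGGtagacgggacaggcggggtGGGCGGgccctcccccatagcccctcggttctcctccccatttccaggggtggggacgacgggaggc
Sparc: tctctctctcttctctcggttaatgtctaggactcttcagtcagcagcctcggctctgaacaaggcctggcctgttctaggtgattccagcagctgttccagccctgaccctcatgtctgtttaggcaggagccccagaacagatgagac
Col8a1: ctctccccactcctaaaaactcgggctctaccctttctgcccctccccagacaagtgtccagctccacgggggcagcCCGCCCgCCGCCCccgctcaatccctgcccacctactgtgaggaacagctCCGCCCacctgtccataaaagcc

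A CCAAT match stood at -109 in Col1a2 and, on the opposite strand, at -91 in Nid1, and Col8a1 held 3 GC boxes in these 150 bases. Over the 250 bases before the start, 41 windows of 37 members could be read. CCAAT occurred in 34.1% of them and in 33.8% of the 32851 windows of all genes, the GC box in 56.1% and 32.7%, and TATAAA in 14.6% and 12.4%. The 2 type IV genes that the array measured best, Col4a1 and Col4a2, start on opposite strands of chromosome 8. The RefSeq transcript starts used here were 11312826 on the minus strand for Col4a1 and 11312805 on the plus strand for Col4a2. The RefSeq span of the Col4a1 gene reaches 11312889, so the genes overlap further than these transcripts. By the starts used, the transcripts share 22 bases at their beginnings, which read on the plus strand as follows.
Col4a1 and Col4a2: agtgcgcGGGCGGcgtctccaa

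Among the 11 fibrillar collagens, 1 passed against the mean of the other types, Col5a2, a chain of the type V collagen that forms the core of fibrils. Between phrenic and C3-C5 GFP-only samples 7 of the 11 had positive differences and 4 negative ones, with a median of 0.68. Col5a2 read 6.79, 7.05, 7.10 and 7.03 on phrenic replicates 1 to 4, then 5.07, 6.10, 5.94 and 5.20 on C3-C5 GFP-only arrays and 6.38, 6.29 and 5.48 on LMC radial arrays. The 4 phrenic arrays lay close together and above the other 7. The difference from the mean of the other types was 1.18 ± 0.23 (2.26-fold, adjusted p = 0.0172), with a phrenic mean of 6.99 ± 0.14 (SD, n = 4), and from C3-C5 GFP-only cells 1.42 ± 0.26 (adjusted p = 0.0191). The first call was lost without phrenic replicate 3 (1.15, adjusted p = 0.0502). The second was lost without C3-C5 GFP-only replicate 1 or replicate 4, at 1.24 to 1.29 and adjusted p-values of 0.0525 to 0.0671.

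Col1a1, the main chain of type I collagen, had the widest range of the fibrillar class. It read 8.22, 7.17, 9.62 and 9.28 on phrenic arrays, 5.75, 6.86, 6.57 and 5.40 on C3-C5 GFP-only arrays, and 7.80, 8.33 and 6.56 on LMC radial arrays. Phrenic and C3-C5 GFP-only arrays did not overlap, while LMC radial arrays reached into both. The difference between phrenic and C3-C5 GFP-only means was 2.43 ± 0.56, which is 5.39-fold, and at an adjusted p of 0.0577 it did not pass. A dimmer probe set of Col1a1, with a mean of 5.46, gave 2.42 ± 0.37 and passed (adjusted p = 0.00645). The partner chain Col1a2 read 7.39, 6.03, 8.06 and 8.34 in phrenic samples, 5.53, 5.30, 5.51 and 5.23 in C3-C5 GFP-only samples and 7.05, 7.34 and 4.96 in LMC radial samples. LMC radial replicate 3 was its lowest array, and the C3-C5 GFP-only arrays lay within 0.30 of each other. Its difference between phrenic and C3-C5 GFP-only means was 2.06 ± 0.56 (adjusted p = 0.104), and a second probe set gave 2.15 ± 0.47 (adjusted p = 0.0419).

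Col3a1, the chain of type III collagen found in soft tissue and vessel walls, read 7.86, 6.67, 8.80 and 9.27 on phrenic arrays, 5.89, 6.32, 5.97 and 5.92 on C3-C5 GFP-only arrays and 7.98, 8.27 and 6.35 on LMC radial arrays. Each C3-C5 GFP-only array lay below each of the other 7, by a margin of 0.03 at its narrowest, between C3-C5 GFP-only replicate 2 and LMC radial replicate 3. The phrenic difference from C3-C5 GFP-only cells was 2.13 ± 0.54 (adjusted p = 0.0823) and the C3-C5 GFP-only difference from the mean of the other types was -1.82 ± 0.48 (adjusted p = 0.114), so neither passed. Col3a1 lies next to Col5a2 on chromosome 1. Without phrenic replicate 2, Col1a1, Col1a2 and Col3a1 passed between phrenic and C3-C5 GFP-only samples. Another 3 fibrillar members, Col11a2, Col24a1 and Col5a3, stayed below 5 on each array.

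**Figure D2:**
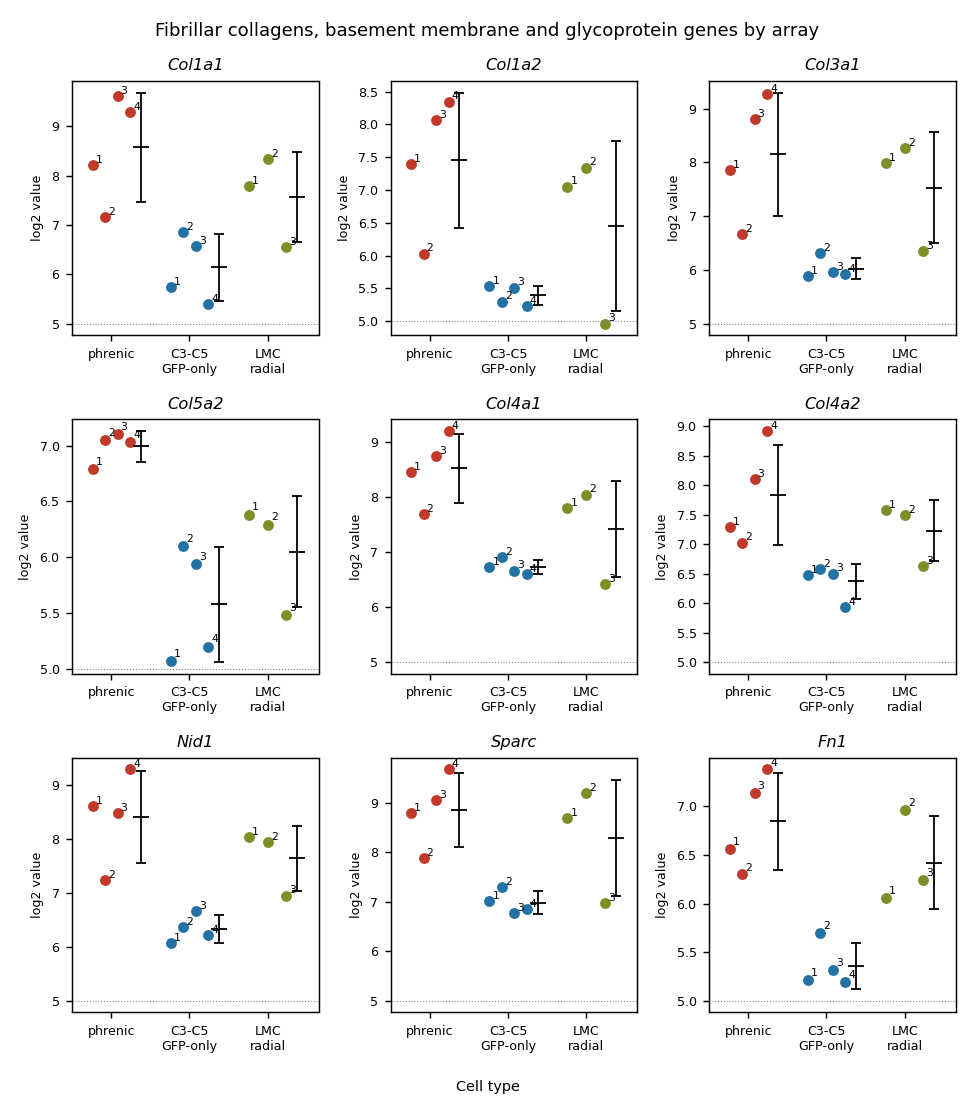
Points are log2 values of 9 members on each array, numbered by replicate; bars give the mean ± SD of each cell type (4, 4 and 3 arrays), and the dotted line marks 5. The C3-C5 GFP-only mean is the lowest in each panel, phrenic replicate 2 is the lowest phrenic point in each panel but that of Col5a2, and LMC radial replicate 3 is the lowest LMC radial point in each but that of Fn1.

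In the basement membrane class, Col4a1 and Nid1 passed. Col4a1 read 8.45, 7.69, 8.73 and 9.19 on phrenic arrays, 6.73, 6.91, 6.66 and 6.60 on C3-C5 GFP-only arrays and 7.79, 8.04 and 6.42 on LMC radial arrays. Phrenic arrays lay above all C3-C5 GFP-only arrays, and LMC radial replicate 3 lay below them. The phrenic level was 1.44 ± 0.32 above the mean of the other types (2.72-fold, adjusted p = 0.0336) and 1.79 ± 0.36 above C3-C5 GFP-only cells (3.46-fold, adjusted p = 0.0321). The call against the mean of the other types was lost without phrenic replicate 1, 3 or 4 or without any of the 4 C3-C5 GFP-only replicates (1.22 to 1.47, adjusted p from 0.0576 to 0.0871). That against C3-C5 GFP-only cells was lost without phrenic replicate 1 or 3 or any of those 4 (1.72 to 1.85, adjusted p from 0.0695 to 0.0977). Its neighbour Col4a2 read 7.29, 7.03, 8.10 and 8.92 in phrenic samples, 6.48, 6.58, 6.50 and 5.93 in C3-C5 GFP-only samples and 7.58, 7.49 and 6.63 in LMC radial samples. Its C3-C5 GFP-only arrays again lay below the other 7, and neither the phrenic difference of 1.47 ± 0.38 (adjusted p = 0.0888) nor the C3-C5 GFP-only difference from the mean of the other types, -1.17 ± 0.34 (adjusted p = 0.144), passed.

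Nid1, nidogen 1, which links type IV collagen to laminin, read 8.61, 7.24, 8.48 and 9.29 on phrenic arrays, 6.07, 6.36, 6.67 and 6.21 on C3-C5 GFP-only arrays and 8.03, 7.94 and 6.95 on LMC radial arrays. The 4 C3-C5 GFP-only arrays were the lowest of the 11. Phrenic cells were 2.08 ± 0.39 above them (4.22-fold, adjusted p = 0.0200), and the C3-C5 GFP-only mean was -1.70 ± 0.34 from the mean of the other types (adjusted p = 0.0473). The phrenic difference from the mean of the other types was 1.42 ± 0.34 (adjusted p = 0.0459). That last call was lost without any of 10 arrays, phrenic replicate 2 being the exception, at adjusted p-values up to 0.103 (1.12 to 1.52). The call against C3-C5 GFP-only cells was lost without phrenic replicate 1 or C3-C5 GFP-only replicates 1, 2 or 4 (1.99 to 2.09, adjusted p from 0.0567 to 0.0671). The fall in C3-C5 GFP-only cells was lost without phrenic replicate 1 or 3, any C3-C5 GFP-only replicate, or LMC radial replicate 1 or 2 (-1.81 to -1.60, adjusted p from 0.0663 to 0.145). A pair of dimmer Nid1 probe sets, with means of 3.16 and 3.65, gave 0.72 ± 0.39 and 0.23 ± 0.18 between phrenic and C3-C5 GFP-only samples. Nid2, the second nidogen, reached 5 on phrenic replicate 3 alone, at 5.27.

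Col4a5, a type IV chain encoded on the X chromosome, varied most between phrenic replicates of this class. It read 7.16, 4.13, 6.97 and 5.31 on phrenic arrays, and stayed below 5 on the other 7, at 3.39, 3.94, 4.25 and 3.55 on C3-C5 GFP-only arrays and 4.25, 4.81 and 4.15 on LMC radial arrays. Phrenic replicate 2 lay among the arrays of the other types. The difference between phrenic and C3-C5 GFP-only samples was 2.11 ± 0.57 (adjusted p = 0.102) and did not pass, and it passed without phrenic replicate 2. Col4a3, Col4a4 and Col4a6 stayed below 5 on each array.

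The 4 glycoproteins took the same order, and 3 of them passed. Fn1 encodes fibronectin, a ligand of integrins that assembles early matrix. It read 6.56, 6.30, 7.14 and 7.38 in phrenic samples, 5.21, 5.70, 5.32 and 5.19 in C3-C5 GFP-only samples and 6.06, 6.96 and 6.24 in LMC radial samples. The C3-C5 GFP-only arrays lay below the other 7, and phrenic and LMC radial arrays overlapped. Fn1 was 1.49 ± 0.26 higher in phrenic than in C3-C5 GFP-only cells (2.81-fold, adjusted p = 0.0148) and -1.28 ± 0.23 in C3-C5 GFP-only cells from the mean of the other types (adjusted p = 0.0307). The first call was lost without C3-C5 GFP-only replicate 3 or 4 (1.44 to 1.48, adjusted p from 0.0532 to 0.0545) and the second without any C3-C5 GFP-only replicate or LMC radial replicate 2 or 3 (-1.39 to -1.14, adjusted p from 0.0501 to 0.133). The phrenic difference from the mean of the other types, 0.96 ± 0.23 (adjusted p = 0.0464), was lost without any 1 array other than phrenic replicate 2 or LMC radial replicate 2 (0.78 to 1.05, adjusted p from 0.0554 to 0.122). Another Fn1 probe set, with a mean of 4.06, gave 0.18 ± 0.18 between phrenic and C3-C5 GFP-only samples.

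Sparcl1, a relative of Sparc that is also made in the nervous system, gave the steadiest differences of the glycoproteins. It read 6.64, 5.91, 6.38 and 6.85 on phrenic arrays, 4.70, 4.90, 5.11 and 4.81 on C3-C5 GFP-only arrays and 5.97, 5.85 and 5.81 on LMC radial arrays. The C3-C5 GFP-only arrays lay below the other 7, and phrenic replicate 2 overlapped the LMC radial arrays. Phrenic cells were 1.56 ± 0.18 above C3-C5 GFP-only cells, at least 2.67-fold (adjusted p = 0.00128), and 1.07 ± 0.16 above the mean of the other types (adjusted p = 0.00384). C3-C5 GFP-only cells lay -1.28 ± 0.16 from the mean of the other types (adjusted p = 0.00474), and these 3 calls held without any 1 array. The C3-C5 GFP-only call was lost with the mesenchyme mean as a covariate (-1.10 ± 0.21, adjusted p = 0.0752). LMC radial cells were 1.00 ± 0.20 above C3-C5 GFP-only cells (adjusted p = 0.0212). That call was lost without C3-C5 GFP-only replicate 2 or 4 or any LMC radial replicate, at adjusted p-values from 0.0508 to 0.0790 (0.95 to 1.03).

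Sparc, an abundant collagen-binding protein of basement membranes, was among the brightest members. It read 8.79, 7.89, 9.07 and 9.68 in phrenic samples, 7.02, 7.30, 6.78 and 6.85 in C3-C5 GFP-only samples and 8.70, 9.21 and 6.97 in LMC radial samples. Phrenic arrays lay above all C3-C5 GFP-only arrays, and LMC radial replicate 3 lay among the latter. The difference of 1.87 ± 0.46 between these means did not pass (adjusted p = 0.0767). Postn encodes periostin, a protein of collagen-rich tissue. It read 4.79, 5.15, 4.07 and 5.56 on phrenic arrays, 3.84, 3.70, 3.21 and 3.44 on C3-C5 GFP-only arrays and 4.12, 4.55 and 3.92 on LMC radial arrays, so phrenic replicates 2 and 4 were the arrays that reached 5. The phrenic difference from C3-C5 GFP-only cells was 1.35 ± 0.28 (adjusted p = 0.0384), at least 1.13-fold. It was lost without any 1 array other than phrenic replicate 3 or 4 (1.23 to 1.44, adjusted p from 0.0510 to 0.128).

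Of the small leucine-rich proteoglycans, which bind collagen fibrils and space them, Bgn passed. Biglycan, its product, is found in bone, tendon and vessel walls. Bgn read 6.12, 4.94, 5.60 and 6.66 in phrenic samples, 4.30, 4.52, 4.23 and 3.83 in C3-C5 GFP-only samples and 5.76, 5.50 and 4.56 in LMC radial samples. Its C3-C5 GFP-only arrays lay below the other 7. The phrenic difference from C3-C5 GFP-only cells was 1.61 ± 0.36 (adjusted p = 0.0482), at least 1.79-fold. It was lost without phrenic replicate 1, 3 or 4, any C3-C5 GFP-only replicate, or LMC radial replicate 1 or 2 (1.33 to 1.71, adjusted p from 0.0593 to 0.142). Decorin and lumican, encoded by the neighbouring genes Dcn and Lum on chromosome 10 and typical of fibroblasts, were dim. Dcn read 4.66, 3.34, 3.48 and 6.37 on phrenic arrays, 3.64, 3.47, 3.73 and 3.72 on C3-C5 GFP-only arrays and 3.76, 3.95 and 3.74 on LMC radial arrays, so phrenic replicate 4 was the 1 array above 5. Lum read 2.96, 2.91, 4.17 and 3.15 on phrenic arrays, 2.64, 2.56, 2.72 and 2.60 on C3-C5 GFP-only arrays and 3.07, 3.10 and 2.84 on LMC radial arrays, highest on phrenic replicate 3. Neither passed in any comparison.

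Of the 24 members with a mean of at least 5 in some cell type, 8 had another order of means: Col26a1, Col8a1, Col25a1, Col9a3, Col2a1, Col5a1, Col11a1 and Col22a1. Col26a1 encodes a secreted collagen with an EMI domain. It read 7.86, 7.89, 8.42 and 8.13 on phrenic arrays, 5.65, 5.86, 6.01 and 5.55 on C3-C5 GFP-only arrays and 5.84, 5.54 and 4.14 on LMC radial arrays. Phrenic replicate 2 was here as high as the others, and the 4 phrenic arrays lay above the remaining 7 by a wide margin. The phrenic mean of 8.07 ± 0.26 (SD, n = 4) was 2.60 ± 0.28 above the mean of the other types (adjusted p = 0.000345), 2.31 ± 0.31 above C3-C5 GFP-only cells (4.94-fold, adjusted p = 0.00321) and 2.90 ± 0.33 above LMC radial cells (7.47-fold, adjusted p = 0.000531). The C3-C5 GFP-only mean of 5.77 ± 0.20 (n = 4) and the LMC radial mean of 5.17 ± 0.91 (n = 3) differed by -0.60 ± 0.33 for LMC radial against C3-C5 GFP-only (adjusted p = 0.352). The 3 phrenic calls held without any 1 array. A second probe set of Col26a1 lay at a mean of 3.34 and gave 0.11 ± 0.15 between phrenic and C3-C5 GFP-only samples.

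Col8a1, a chain of the short network collagen VIII found in vessels and Descemet's membrane, passed at a low level. It read 4.79, 5.77, 4.78 and 4.78 on phrenic arrays, 3.73, 3.58, 4.08 and 3.03 on C3-C5 GFP-only arrays and 3.47, 3.54 and 3.67 on LMC radial arrays. Phrenic replicate 2, low for most members, was the highest array for this gene and the 1 array above 5. The difference was 1.45 ± 0.23 from the mean of the other types (adjusted p = 0.00501), 1.42 ± 0.26 from C3-C5 GFP-only cells (adjusted p = 0.0177) and 1.47 ± 0.28 from LMC radial cells (adjusted p = 0.0107), each at least 1.14-fold. The call against C3-C5 GFP-only cells was lost without C3-C5 GFP-only replicate 2 (1.41, adjusted p = 0.0598), and the other 2 held without any 1 array. With values under 5 raised to 5 each of the 3 calls was lost (0.19, adjusted p from 0.876 to 1.0), and the call against LMC radial cells was lost in the 7 arrays of the higher set (1.22 ± 0.21, adjusted p = 0.0503). The 2 remaining probe sets of Col8a1, with means of 4.07 and 2.96, gave 0.35 ± 0.15 and 0.01 ± 0.13 against the mean of the other types and did not pass.

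Col25a1 encodes a transmembrane collagen that motor neurons use during muscle innervation. It read 7.70, 6.84 and 7.62 on LMC radial arrays, 6.59, 3.73, 6.20 and 6.34 on phrenic arrays and 5.92, 5.45, 5.21 and 4.85 on C3-C5 GFP-only arrays. The 3 LMC radial arrays lay above the other 8, and phrenic replicate 2 lay far below the other phrenic arrays. The LMC radial difference from the mean of the other types, 1.85 ± 0.52, did not pass (adjusted p = 0.0589). It passed without phrenic replicate 1, 2 or 4, and with the replicate block (1.87 ± 0.46, adjusted p = 0.0452). A second Col25a1 probe set had a mean of 3.94 and gave 0.11 ± 0.19 between LMC radial and C3-C5 GFP-only samples. Col9a3, a chain of the fibril-associated collagen IX picked after its values were seen, was highest in C3-C5 GFP-only samples. It read 6.78, 7.75, 7.84 and 7.04 there, 5.95, 6.79, 7.44 and 6.16 on phrenic arrays and 6.52, 5.94 and 6.24 on LMC radial arrays, and did not pass in any comparison.

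**Figure D3:**
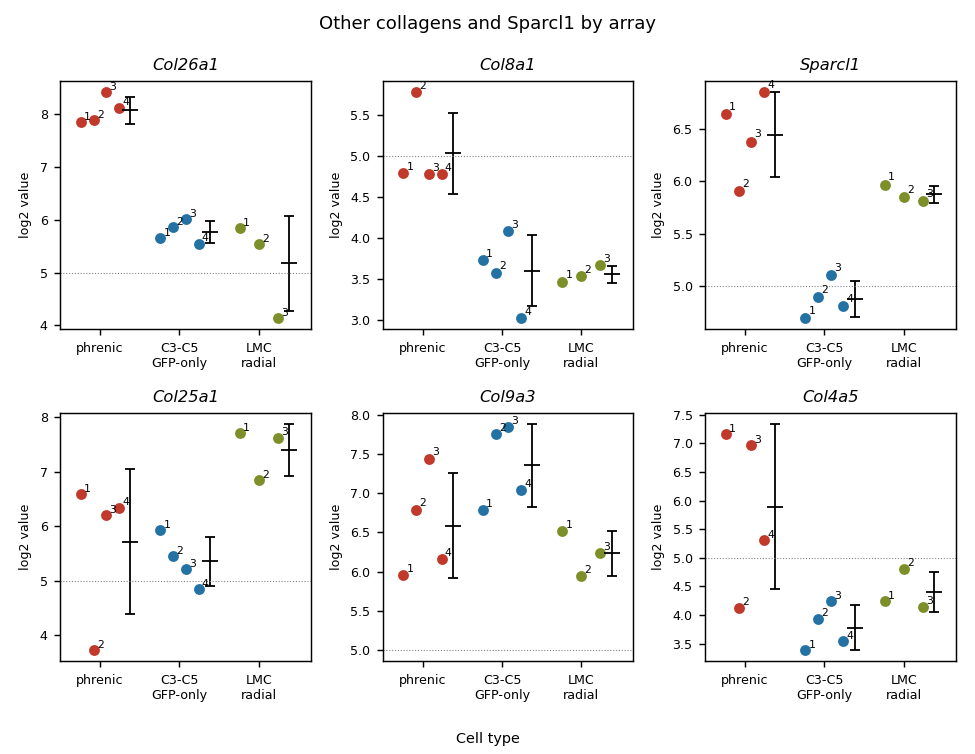
Points are log2 values of 6 members on each array, numbered by replicate, with bars for the mean ± SD of each cell type (4, 4 and 3 arrays) and a dotted line at 5. The 4 phrenic points stand above the other 7 for Col26a1 and Col8a1, the LMC radial points stand highest for Col25a1, and phrenic replicate 2 is the lowest phrenic point for Sparcl1, Col25a1 and Col4a5 and the highest for Col8a1.

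Col9a1, another chain of collagen IX and a cartilage protein, read 6.00, 5.54, 7.71 and 7.73 on phrenic arrays, 4.29, 5.06, 5.18 and 5.24 on C3-C5 GFP-only arrays and 6.25, 7.31 and 6.35 on LMC radial arrays. Its C3-C5 GFP-only arrays lay below the other 7, and the difference of -1.75 ± 0.44 from the mean of the other types did not pass (adjusted p = 0.0967). Col6a1, a chain of the beaded filament collagen VI that surrounds muscle and nerve, read 5.03, 4.06, 6.56 and 7.15 on phrenic arrays, 4.44, 5.03, 5.15 and 4.49 on C3-C5 GFP-only arrays and 5.03, 5.27 and 4.81 on LMC radial arrays. Phrenic replicates 3 and 4 stood above the other 9 arrays, and phrenic replicate 2 was the lowest of the 11. None of its comparisons passed. Another 3 members are given here that were picked after their values were seen. Col2a1, the main collagen of cartilage, read 6.10, 5.37, 6.62 and 8.18 on phrenic arrays, 4.85, 5.30, 5.07 and 5.45 on C3-C5 GFP-only arrays and 6.59, 7.35 and 5.89 on LMC radial arrays. Col18a1, a basement membrane collagen whose end fragment is endostatin, read 5.51, 6.76, 7.92 and 8.25 on phrenic arrays and 5.11 to 6.56 on the other 7. Phrenic replicate 1 was thus among the arrays of the other types for Col18a1, and phrenic replicate 2 for Col2a1. Col22a1 read 4.66, 4.30, 6.84 and 5.96 on phrenic arrays and 5.42 to 6.96 on the other 7, so its 2 lowest arrays were phrenic replicates 1 and 2. None of the 3 passed. Of the 51 members, 24 had a mean of at least 5 in some cell type, 11 were at 5 or above on each array and 23 were below 5 on each array. The dim 23 included 6 of the 9 fibril-associated collagens, 3 of the 4 transmembrane collagens and 4 of the 6 beaded filament and anchoring collagens.

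The counts for LMC radial samples depended on the fit. Of the 51, 1 was lower than the mean of the other types, Col26a1 (-1.75 ± 0.30, adjusted p = 0.00642), and 0 were higher, with 3.37% of all probe sets lower and 3.65% higher. The count was 3 without phrenic replicate 4 and 2 without phrenic replicate 1, phrenic replicate 2 or LMC radial replicate 1. In phrenic against LMC radial cells 2 members, Col26a1 and Col8a1, were higher and 0 lower, with 3.48% of all probe sets higher and 3.14% lower, and 4 were higher without phrenic replicate 2. Between LMC radial and C3-C5 GFP-only cells, Sparcl1 was the 1 member that passed, higher in LMC radial cells, with 1.88% of all probe sets higher and 1.88% lower. There the count was 3 without phrenic replicate 2 or 4, and 0 without C3-C5 GFP-only replicate 2 or 4 or LMC radial replicate 1 or 2. In 14 members each LMC radial array lay above each C3-C5 GFP-only array and in 3 each lay below, against 11.4% and 11.7% of all probe sets. At an unadjusted p under 0.05, limma gave 2 members higher and 3 lower in LMC radial cells against the mean of the other types, 7 higher and 2 lower in phrenic against LMC radial cells, and 13 higher and 1 lower in LMC radial against C3-C5 GFP-only cells. As above, all probe sets were not counted at that level. The median member difference was 0.18 between LMC radial and C3-C5 GFP-only samples and 0.30 between phrenic and LMC radial samples. With array weights 5 members passed in LMC radial cells against the mean of the other types and 12 against C3-C5 GFP-only cells, 11 of these higher. Against C3-C5 GFP-only cells 7 passed in a fit of these 2 types alone and 6 without phrenic replicates 1 and 4, and 0 passed with the floor at 5, with the array set as a term or with the mesenchyme covariate. As shares of the 51 members in the full fit, the calls came to 1.96%, 3.92% and 1.96% in these 3 comparisons.

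**Figure D4:**
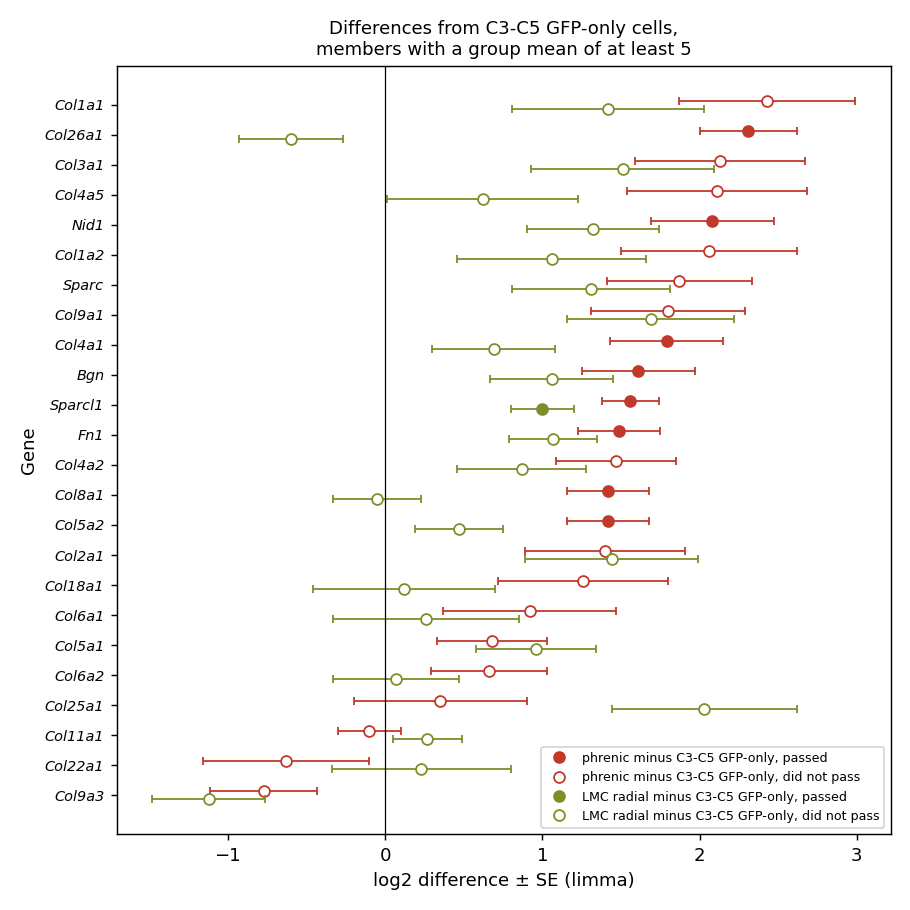
Circles give the log2 difference ± SE from C3-C5 GFP-only cells for the 24 members with a mean of at least 5 in some cell type, phrenic in red and LMC radial in green, filled where the adjusted p was under 0.05. Among phrenic differences 8 are filled, and 1 among LMC radial differences, Sparcl1; Col26a1 stands at 2.31 in red and -0.60 in green.

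The arrays differed within a type in the same order for many members. Phrenic replicate 2 was the lowest phrenic array in 31 of the 51 members (60.8%), against 24.9% of all probe sets, and phrenic replicate 3 or 4 was the highest in most, replicate 3 in 17 (33.3%, against 22.0% of all probe sets) and replicate 4 in 22 (43.1%, against 32.0%). LMC radial replicate 3 was the lowest LMC radial array in 30 (58.8%), against 29.6% of all probe sets. Over the 24 brighter members, the array mean was 6.63, 6.09, 7.38 and 7.36 on phrenic replicates 1 to 4, 5.41, 5.77, 5.69 and 5.37 on C3-C5 GFP-only replicates and 6.54, 6.63 and 5.73 on LMC radial replicates. LMC radial replicate 3 thus lay within the C3-C5 GFP-only range, and each phrenic array lay above it.

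The mean of mesenchyme markers had the same order of cell types as the mean of the 51 matrix genes. The mean of 18 mesenchyme genes, none of them a member, was 4.07, 3.99, 5.06 and 4.70 on phrenic arrays, 3.52, 3.86, 3.81 and 3.74 on C3-C5 GFP-only arrays and 4.37, 4.36 and 3.82 on LMC radial arrays. Phrenic replicate 2 was lowest among phrenic arrays and LMC radial replicate 3 in its group, as for the mean of the 51 members. Phrenic replicate 3 was highest for mesenchyme and phrenic replicate 4 for the mean of the 51 members (5.62, against 5.55 on replicate 3). Twist1, a transcription factor of early mesenchyme, read 6.97, 5.31, 7.25 and 8.12 on phrenic, 4.02, 4.93, 5.01 and 4.76 on C3-C5 GFP-only arrays and 6.52, 7.23 and 6.00 on LMC radial arrays. Of the 18, 2 passed as higher in phrenic neurons than in the mean of the other types (11.1%, against 2.4% of all probe sets). These were Prrx1 (1.73 ± 0.38, adjusted p = 0.0313) and Foxc1 (1.43 ± 0.34, adjusted p = 0.0416), both transcription factors of mesenchyme. Of the 18 differences there, 14 were positive and 4 negative, with a median of 0.27, and 0 of the 18 genes reached 5 on each array. Foxc1 was also lower in C3-C5 GFP-only cells (-1.80 ± 0.34, adjusted p = 0.0351). Pdgfra, the growth factor receptor of fibroblast progenitors, read 4.29, 6.26, 8.19 and 6.83 on phrenic arrays and did not pass. Its lowest phrenic array was replicate 1, and not replicate 2 as for the mean of the list. A further 7 of the 18 were below 5 on each array, namely Meox1, Msx1, Osr1, Osr2, Prrx2, Tbx18 and Tcf21.

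Markers of other cells also stood higher on some of the same arrays. The mean of 13 endothelial genes was 4.06 to 4.85 on phrenic, 3.65 to 4.06 on C3-C5 GFP-only arrays and 3.88 to 4.67 on LMC radial arrays. Of the 13, 7 were below 5 on each array, Pecam1 and Cdh5 among them. Both phrenic and LMC radial samples gave 12 positive differences from C3-C5 GFP-only samples and 1 negative, and 0 passed. Of all probe sets, 49.9% and 50.5% of these differences were positive. For 7 Schwann cell and neural crest genes the means were 5.12, 4.56, 5.49 and 6.71 on phrenic arrays, 4.35 to 4.58 on C3-C5 GFP-only arrays and 5.27, 5.27 and 4.43 on LMC radial arrays. The 11 cell cycle genes had means of 6.01, 5.92, 6.64 and 7.59 on phrenic arrays, 5.31 to 5.67 on C3-C5 GFP-only arrays and 5.63, 6.20 and 5.38 on LMC radial arrays. Pericyte and smooth muscle markers ranged from 3.83 to 4.74, meningeal markers from 4.60 to 5.39, cartilage markers from 4.07 to 5.12, skeletal muscle markers from 3.62 to 4.26 and macrophage markers from 3.27 to 4.47 over the 11 arrays. Neural progenitor markers ranged from 6.00 to 7.62, highest on phrenic replicate 4, and erythroid markers from 3.53 to 6.04, lowest on phrenic replicate 3. The part of these other cells in the matrix differences was not tested.

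**Figure D5:**
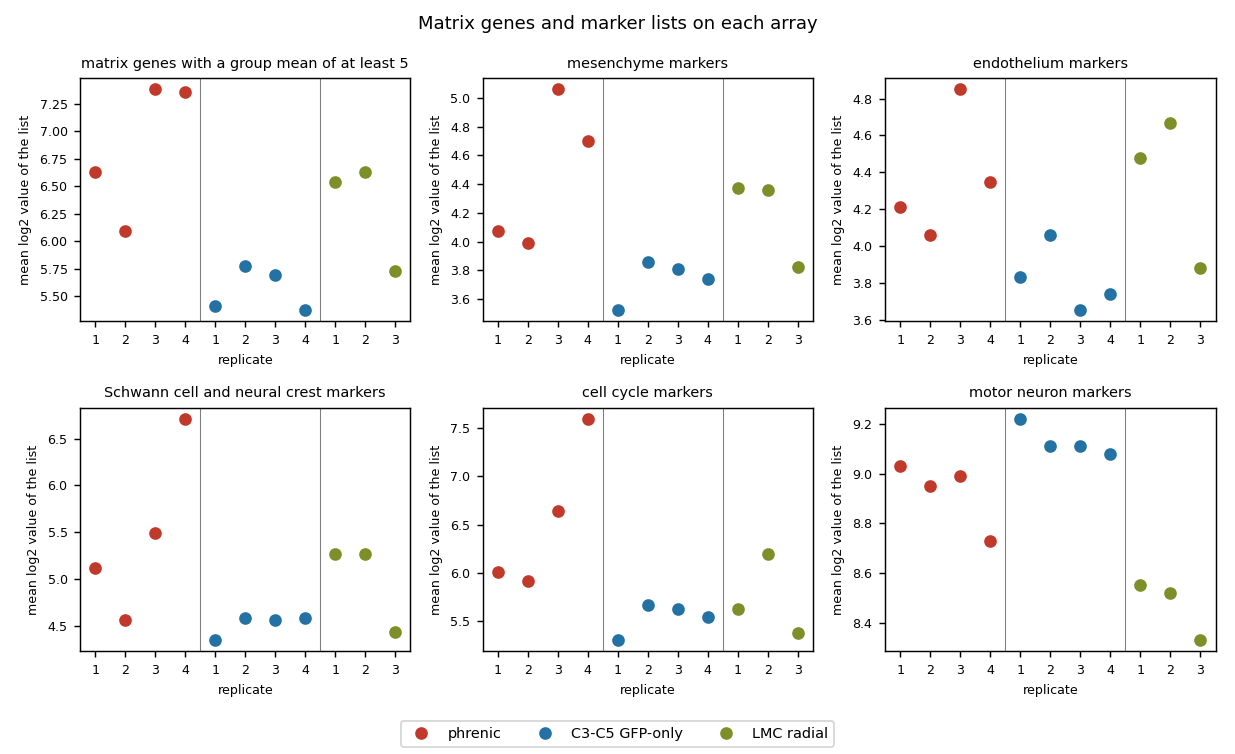
Each point is the mean log2 value of a gene list on an array, in panels for the 24 brighter matrix genes, mesenchyme, endothelium, Schwann cell and neural crest, cell cycle and motor neuron markers, with replicates along the x axis and cell types in colour. LMC radial replicate 3 is the lowest LMC radial array in each panel. Phrenic replicates 3 and 4 are the highest phrenic arrays in the panels other than motor neuron markers, where phrenic replicate 4 is the lowest.

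With the mesenchyme mean of each array as a covariate, 3 of the 7 phrenic calls against the mean of the other types remained: Col26a1 (2.13 ± 0.27, adjusted p = 0.00319), Col8a1 (1.69 ± 0.28, adjusted p = 0.0131) and Sparcl1 (0.91 ± 0.20, adjusted p = 0.0493). The differences of Fn1, Nid1 and Col4a1 became 0.57 ± 0.23, 0.85 ± 0.35 and 0.85 ± 0.29, and did not pass. Between phrenic and C3-C5 GFP-only samples, Col1a1 went from 2.43 to 0.82 ± 0.41, Col1a2 from 2.06 to 0.65 ± 0.53 and Col3a1 from 2.13 to 0.63 ± 0.43, while Col26a1 went from 2.31 to 1.61 ± 0.34 and Sparcl1 from 1.56 to 1.34 ± 0.25. Differences grew for Col8a1, from 1.42 to 1.78 ± 0.35 (adjusted p = 0.0565), and for Postn, from 1.35 to 1.57 ± 0.41 (adjusted p = 0.148). Sparcl1 was there the 1 call of the 9 that remained (adjusted p = 0.0489). Col22a1, a fibril-associated collagen that passed in no comparison of the full fit, passed under the covariate in both. Its phrenic mean of 5.44 lay below the C3-C5 GFP-only mean of 6.06 and the LMC radial mean of 6.29, unlike the calls above. The mesenchyme mean itself differed between the types, so such a fit also removes differences between types.

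The matrix differences were also read within each array set. In the 7 arrays with the higher 25th percentile, Sparcl1 remained as the 1 of 9 calls between phrenic and C3-C5 GFP-only samples (1.99 ± 0.15, adjusted p = 0.0131), and in the 4 arrays of the lower set 0 members passed, with 2 arrays a type. In each of these 9 members every phrenic array lay above every C3-C5 GFP-only array, so the same direction in both sets was fixed in advance. The difference was smaller in the lower set for 8 of them. Nid1 gave 2.81 ± 0.40 and 1.34 ± 0.44, Bgn 2.33 ± 0.42 and 0.89 ± 0.27, Sparcl1 1.99 and 1.14 ± 0.20, and Col1a1, which did not pass in the full fit, 3.18 ± 0.60 and 1.68 ± 0.83. Col26a1 gave 2.39 ± 0.52 and 2.22 ± 0.21, and Col8a1 1.40 ± 0.23 and 1.45 ± 0.39.

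Genes that process and crosslink collagen were read beside the members. Of 30 measured genes of processing and crosslinking, 2 were higher in phrenic neurons than in the mean of the other types and 0 lower (6.67%, against 2.4% of all probe sets higher), with a median difference of 0.27. Adamts3, a protease that trims the amino end of procollagens, read 8.79, 8.39, 8.79 and 8.27 on phrenic arrays, 6.41, 6.91, 6.82 and 6.91 on C3-C5 GFP-only arrays and 6.39, 6.13 and 4.98 on LMC radial arrays. Its phrenic arrays lay above the other 7, as for Col26a1, and the difference was 2.26 ± 0.24 (adjusted p = 0.000397). Plod2, a lysyl hydroxylase that prepares crosslinks, was the other, at 0.65 ± 0.15 (adjusted p = 0.0362). Against C3-C5 GFP-only cells 2 were higher, Adamts3 (1.80 ± 0.28, adjusted p = 0.0069) and Plod2 (0.81 ± 0.17, adjusted p = 0.0343), and 1 lower, Pcolce2, an enhancer of procollagen cleavage, whose 11 values lay between 2.51 and 4.23 (-0.95 ± 0.21, adjusted p = 0.0454). The share of all probe sets was 0.973% higher and 0.986% lower there. Between phrenic and LMC radial samples the median was 0.35 for the 30 processing genes and 0.30 for the 51 members. There 2 of the 30 passed as higher (6.67%, against 3.48% of all probe sets). In LMC radial cells Adamts3 (-1.83 ± 0.26, adjusted p = 0.00254) and Mia3, a carrier of procollagen out of the endoplasmic reticulum (-0.42 ± 0.11, adjusted p = 0.0392), were lower than the mean of the other types, where 3.37% of all probe sets were lower.

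Collagen receptors and collagenases gave 0 of 13 genes higher or lower in phrenic against C3-C5 GFP-only samples and in phrenic samples against the mean of the other types. Ddr1 and Ddr2, the receptors that sense collagen, and the collagenase Mmp8 did not pass in these comparisons, and Ddr1 was bright on each array, at 8.81 to 9.63. Timp3, an inhibitor of metalloproteinases bound to matrix, was lower in LMC radial samples than in the mean of the other types (-1.54 ± 0.32, adjusted p = 0.0183). Of 23 other connective tissue matrix genes, 1 was higher in phrenic samples than in the mean of the other types, Ecm1, a secreted glycoprotein (0.91 ± 0.18, adjusted p = 0.0202), which is 4.35% against 2.4% of all probe sets. In LMC radial samples Fbln1, the matrix protein fibulin 1, was higher (1.26 ± 0.27, adjusted p = 0.0206), and Mfap4, a microfibril-associated protein, was lower (-1.54 ± 0.37, adjusted p = 0.0316), as was Ecm1 (-0.74 ± 0.20, adjusted p = 0.0477), with 3.65% of all probe sets higher and 3.37% lower. The median difference between phrenic and C3-C5 GFP-only samples was 0.17 for processing genes, 0.20 for receptors and collagenases and 0.14 for other matrix genes, against 0.51 for the 51 members.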

How the data were processed

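RNA of sorted motor neurons was hybridized to 11 Affymetrix arrays, grouped by the cell type in the labels. The authors deposited 1 log2 value per probe set and array, made with RMA (background correction, quantile normalization across arrays and a robust summary of each probe set), per the submitters' processing notes; its version and the annotation are not given in the sources used here. Of 45101 probe sets the 64 controls were left out and 45037 tested, named through the platform's annotation. All 11 arrays entered 1 limma model (limma 3.58.1, R 4.3.3) with a coefficient for each cell type, 8 residual and 2.92 prior degrees of freedom, and moderated two-sided tests. There were 6 contrasts: each cell type against the average of the remaining types' means, and the 3 pairs. Benjamini-Hochberg adjustment ran over all 45037 probe sets of a contrast, and adjusted p under 0.05 was taken as passing. The script was tested on simulated data. The number of arrays limits the precision.

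Members, lists and comparisons were chosen with earlier results of these data known. Members named with all values were those that passed in any comparison, 10 chosen by name (Col1a1, Col1a2, Col3a1, Col4a1, Col4a2, Fn1, Sparc, Postn, Dcn and Lum) and the member with the widest range in each class, 20 in all; of each list of other matrix genes, up to 4 with the smallest p were named. Replicate numbers were taken to pair phrenic and C3-C5 GFP-only arrays. Deviations from the type means correlated by 0.125, 0.183, 0.224 and 0.177 between arrays of these types with the same number. With LMC radial arrays the correlations were -0.083 to 0.05. Phrenic and C3-C5 GFP-only arrays of the same number always lay in the same array set, and arrays of different number were not compared. Whether the correlations reflect pairs or array sets was therefore not tested. Alternatives were other normalizations, filters, priors, weights, blocks, probe set choices, array sets and covariates, and leaving out each array. Promoter sequences came from RefSeq tables.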

Additional observations from a re-analysis of the deposited data

Results flagged for a closer look

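Of 94 groups of 4 arrays examined, 6 held an array whose gap to its nearest neighbour took more than 0.829 of the group's range. Chance gives about 1 in 20, and 6 of 94 is near that share. Some groups share genes, as Col25a1 is part of the transmembrane mean, so the flags are not independent. Phrenic replicate 2 accounted for 4 of the 6. It was far below the other phrenic arrays for Col25a1 (3.73, with the nearest at 6.20), for the mean of the transmembrane collagens (3.50, nearest 4.39) and for the mean of the basement membrane network collagens (4.94, nearest 5.61). It was far above them for Col8a1 (5.77, nearest 4.79). C3-C5 GFP-only replicate 4 was far below its group for Col4a2, at 5.93 with the nearest at 6.48. C3-C5 GFP-only replicate 1 was below its group for the mean of the Schwann cell and neural crest markers, at 4.35 with the nearest at 4.56.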

How the results depend on the processing

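The number of members that passed moved by more than 1.5 times under these settings. The cause was not tested, apart from what is given above on the floor for members with no value under 5. Between phrenic and C3-C5 GFP-only samples it was 9, and 2 with values under 5 raised to 5, 1 in the 7 arrays of the higher set, 0 in the 4 arrays of the lower set, 5 without phrenic replicates 1 and 4, 2 with the mesenchyme covariate and 3 in the fit of 2 types with the replicate block. For phrenic samples against the mean of the other types it was 7, and 2 with that floor, 4 with array weights, 2 in the higher set and 4 with the covariate. For C3-C5 GFP-only samples it was 3, and 1 with the floor, 12 with array weights, 5 with the mean of a gene's probe sets, 1 in the higher set and 1 with the covariate. The covariate counts given so far each include Col22a1, which did not pass in the full fit. For LMC radial samples it was 1, and 2 with quantile normalization, 3 with median centring, 3 with a trended and robust prior, 5 with array weights, 2 with the replicate block, 0 in the higher set and 5 without phrenic replicates 1 and 4. Between phrenic and LMC radial samples it was 2, and 1 with the floor and 5 without phrenic replicates 1 and 4. Between LMC radial and C3-C5 GFP-only samples it was 1, and 2 with quantile normalization, 2 with centring, 0 with the floor, 12 with array weights, 2 with the mean of probe sets, 0 with the array set as a term, 6 without phrenic replicates 1 and 4, 0 with the covariate and 7 in the fit of those 2 types. Leaving out 1 array gave 3 to 15, 4 to 12, 1 to 8, 1 to 3, 2 to 4 and 0 to 3 in the same order. Beside the calls given with the results, the replicate block changed no other call of the members named with all their values. The alternatives chosen after seeing the data were the lower set and the 2-type fit with the block.

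Differences that changed sign were those of members that had not passed. Col25a1 between phrenic and C3-C5 GFP-only samples went from 0.35 to -0.02 with array weights, -0.37 in the lower set, -0.40 without phrenic replicates 1 and 4 and -0.19 with the covariate. Dcn went from 0.82 to -0.19 in the lower set and -0.23 without phrenic replicates 1 and 4, and Col6a1 from 0.92 to -0.55 with the covariate. In C3-C5 GFP-only samples against the mean of the other types, Col6a1 became 0.61 with the covariate and Dcn 0.03 without phrenic replicates 1 and 4. For levels under 5 the arrays give little signal over background.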
